A study of Mus musculus with 6 samples.

Results

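The 10 genes described here act in the piRNA pathway of germ cells: Piwil2, Piwil4, Mov10l1, Pld6, Mael, Asz1, Tdrd1, Tdrd5, Tdrd9 and Tdrd12. They were chosen by gene name, and all 10 were found among the 35974 named genes of a count matrix of embryonic mouse ovaries. Together they comprised 62 of its 114412 transcripts, and the counts of all transcripts of a gene were added up in each pool. Pregnant C57Bl6j mice received panobinostat (PB), a histone deacetylase inhibitor, by gavage at 5 mg/kg between E6.5 and E15.5, while control mice received DMSO in water. The sample annotation gives this dose per day and the published methods give it on alternate days. Ovaries of the embryos were collected at E15.5, and polyadenylated RNA was sequenced with strand-specific libraries from 3 control pools and 3 PB pools. The number of ovaries in a pool is stated as 4 in the sample protocol, as 6 to 8 in the series description and as at least 8 in the published methods. The whole ovary was used, with germ cells and somatic cells together, so fewer germ cells and less RNA per germ cell cannot be told apart.

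piRNAs are small RNAs of the germline that guide PIWI proteins to transposon transcripts. Long precursor RNAs are unwound and cut on the surface of mitochondria, and the products are loaded onto PIWI proteins in the nuage, a germ cell granule where Tudor domain proteins bind the methylated arginines of the PIWI proteins. In mice the pathway is best known from the fetal and adult testis, where its loss releases transposons and blocks spermatogenesis, while females without these proteins are usually fertile and mouse oocytes also use endogenous siRNAs.

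The pools held between 97165644 and 125985399 counts, of which the 10 genes took between 0.0204% in PB 2 and 0.0356% in PB 3. No 2 pools held identical counts. Foxl2, a marker of pregranulosa cells, lay between 135 and 166 CPM (counts relative to the library size, which was scaled by the TMM method), whereas Amh, a hormone of Sertoli cells, lay between 0.646 and 1.20 CPM. Of the other genes in the Sertoli list, Dhh lay between 0.746 and 1.62 CPM and Ptgds between 1.68 and 2.59 CPM. Higher levels were found for Cyp26b1 (4.61 to 6.12 CPM), Sox9 (10.3 to 14.7 CPM) and Dmrt1 (9.41 to 16.9 CPM). Germ cell markers set PB 2 and PB 3 apart. The 14 genes of the germ cell list summed to 1588, 1287 and 1599 CPM in control 1, 2 and 3 and to 1894, 1104 and 2027 CPM in PB 1, 2 and 3, while the 8 pregranulosa genes summed to 919 to 1013 CPM in control and to 908 to 978 CPM in PB. Red blood cell genes had their highest sum in control 2, at 31759 CPM against 23350 and 14795 CPM in the other control pools. Cdh16, a gene of mesonephric epithelium, was at 14.8 CPM in control 3 and at 1.90 to 3.88 CPM elsewhere.

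All 10 genes were detected in every pool, but at very unequal levels. Levels were compared between genes as TPM, which divides the counts of each transcript by its length. In the control pools Mael stood first at 84.4 ± 13.3 TPM (SD, n = 3), followed by Mov10l1 at 27.5 ± 4.14 TPM and Piwil2 at 15.7 ± 3.66 TPM. Asz1 came next at 10.9 ± 2.13 TPM, and its control pools overlapped with those of Piwil2. Pld6 and Tdrd5 were at 4.91 ± 1.17 and 4.61 ± 0.308 TPM and overlapped with each other, as did Tdrd1 and Tdrd12 at 3.63 ± 0.701 and 3.47 ± 0.898 TPM. The control pools of Pld6 also overlapped with those of Tdrd1 and Tdrd12, as control 2 of Pld6 was at 3.67 TPM. Tdrd9 followed at 2.00 ± 0.387 TPM, and Piwil4 was last at 0.542 ± 0.124 TPM. The mean level of Mael was 156 times that of Piwil4, and the nuclear PIWI gene was thus the least abundant member, at 58 to 151 counts per pool. The order by TPM depends on the lengths of the transcripts to which reads were assigned. By CPM, which does not use length, Tdrd9 was above Tdrd12 in control, at means of 6.31 and 5.18 CPM.

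Across the 6 pools, Mael, Mov10l1, Asz1 and Tdrd9 followed one another most closely, as described below, and for this reason the sequences around their starts are shown. RefSeq promoter windows of 300 bases on GRCm38.p6, from 250 bases before to 50 after the start, were at hand for 9 of the 10 genes, and Piwil2 had no entry. In 7 of these 9, these 4 genes included, the start used for the window was that of the transcript with the most counts. Each is written along the strand of its gene, and capitals mark CACGTG, the E-box hexamer, which reads the same on both strands.
Mael: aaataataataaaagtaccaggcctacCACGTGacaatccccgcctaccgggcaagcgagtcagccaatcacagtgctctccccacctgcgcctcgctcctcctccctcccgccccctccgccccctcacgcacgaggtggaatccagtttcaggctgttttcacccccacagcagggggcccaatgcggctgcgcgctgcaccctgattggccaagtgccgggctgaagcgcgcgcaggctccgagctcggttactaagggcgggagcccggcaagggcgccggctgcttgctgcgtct
Mov10l1: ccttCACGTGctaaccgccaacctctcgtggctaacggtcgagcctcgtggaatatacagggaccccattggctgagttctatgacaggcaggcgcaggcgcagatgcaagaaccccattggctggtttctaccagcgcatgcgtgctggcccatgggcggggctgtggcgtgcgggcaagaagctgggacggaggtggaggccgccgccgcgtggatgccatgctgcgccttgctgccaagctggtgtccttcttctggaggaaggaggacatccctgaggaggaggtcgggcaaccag
Asz1: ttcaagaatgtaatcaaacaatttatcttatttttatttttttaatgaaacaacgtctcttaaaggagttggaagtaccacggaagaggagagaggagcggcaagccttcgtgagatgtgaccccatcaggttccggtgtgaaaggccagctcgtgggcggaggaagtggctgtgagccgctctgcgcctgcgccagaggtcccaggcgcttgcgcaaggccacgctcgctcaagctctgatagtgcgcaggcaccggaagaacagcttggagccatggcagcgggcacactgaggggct
Tdrd9: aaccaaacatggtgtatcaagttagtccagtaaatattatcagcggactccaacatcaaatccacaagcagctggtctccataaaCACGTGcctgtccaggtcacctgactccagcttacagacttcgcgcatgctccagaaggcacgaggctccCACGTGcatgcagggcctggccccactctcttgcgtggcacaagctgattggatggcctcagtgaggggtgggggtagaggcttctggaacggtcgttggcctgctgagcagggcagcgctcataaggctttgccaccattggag
The window of Mael lies at chr1:166238695-166238994 on the minus strand, that of Mov10l1 at chr15:88982744-88983043 on the plus strand, that of Asz1 at chr6:18109012-18109311 on the minus strand and that of Tdrd9 at chr12:111971309-111971608 on the plus strand. CACGTG was found in 5 of the 9 windows, those of Mael, Mov10l1, Tdrd9, Tdrd1 and Pld6, and in 2 copies in Tdrd9. It occurred in 7.15% of all 32851 windows, or in any window of 8.09% of 27025 genes. Of the genes with a window, 5 of 11 other piRNA pathway genes and 6 of 13 germ cell genes held it in any window. For each member, only the window nearest the start of the transcript with the most counts was searched. Ddx4 is in both of the other lists. The window of Asz1 did not hold these letters. GGGCGG, searched on both strands, was in 5 of 9 windows against 35.7% of all windows, and TATAAA was in 1 of 9, that of Piwil4, against 13.6%. Every one of the 9 windows had more CpG dinucleotides than the median window, which had 7. These matches describe the letters of the windows, and binding was not measured.

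To determine whether PB exposure changed the piRNA pathway at E15.5, the summed counts of each gene were compared between the groups with edgeR's quasi-likelihood test over 19435 genes. Genes that differed 2-fold or more, with a Benjamini-Hochberg FDR no higher than 0.05, were called. None of the 10 members was called, where 0.0154% of all genes tested were called. At an unadjusted p under 0.05 there was 1 member, Piwil4, against 4.46% of all genes. DESeq2 also called 0 members. The log2 fold change was above 0 in 4 members, Mael, Mov10l1, Tdrd9 and Asz1, and below 0 in 6, against 50.7% of all genes above 0. The median of the members was -0.015 on the log2 scale, and that of all genes was 0.0020. For 9 of the 10 members the 95% interval of the log2 fold change lay within -1 and 1, a range that held the intervals of 76.5% of all genes. The interval of Piwil4 was the exception.

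**Figure D1:**
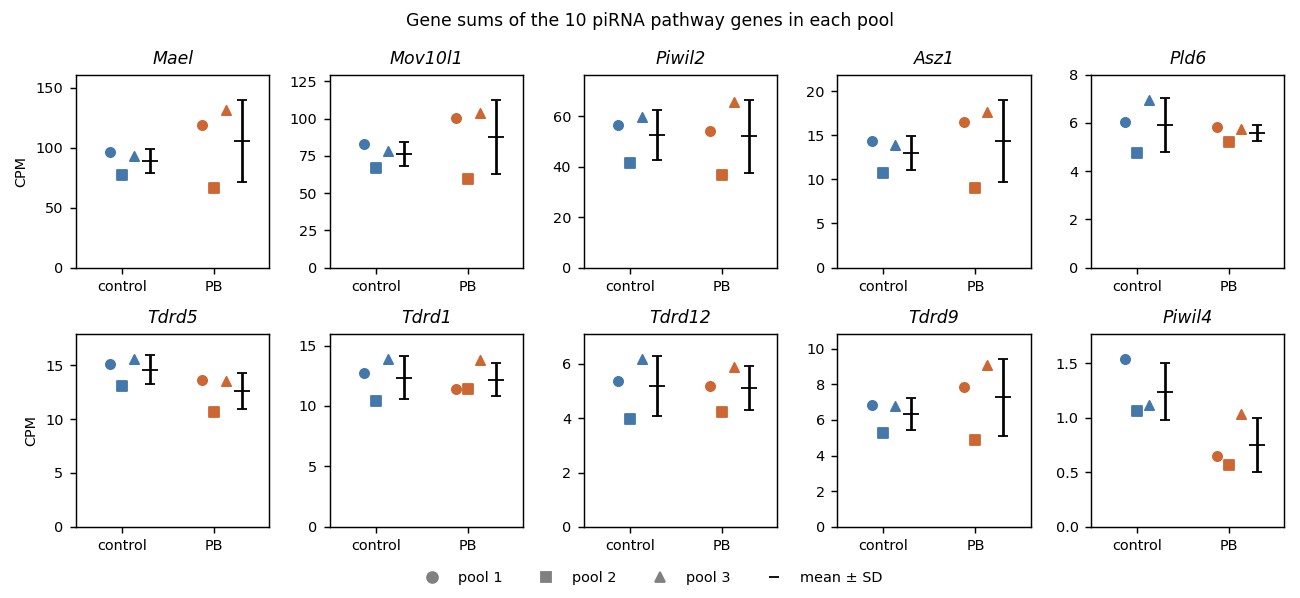
CPM of the 10 genes (vertical axes, each from 0) in the control pools (blue) and PB pools (orange). Each marker is 1 pool, with its shape giving the pool number, and the bars are the mean ± SD of 3 pools. Piwil4 is the gene whose groups do not overlap in CPM, although they do in TPM, and pool 2 is the lowest control pool in every panel.

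The 2 PIWI genes of the list differed in level and in pattern. Piwil2 (chr14:70372477-70436916, minus strand, mm10) encodes the cytoplasmic PIWI protein that slices transposon RNA. It was at 56.7, 41.5 and 59.7 CPM in control 1, 2 and 3 and at 54.1, 36.8 and 65.6 CPM in PB 1, 2 and 3. The groups overlapped over nearly their whole range, with a log2 fold change of -0.013 ± 0.23 (SE; edgeR FDR = 0.995). Its 95% interval ran from 0.677-fold to 1.45-fold.

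Piwil4 (chr9:14701782-14740765, minus strand) encodes the nuclear PIWI protein that directs DNA methylation to transposons in fetal male germ cells. Its counts were 151, 124 and 105 in control and 64, 58 and 120 in PB, which is 1.54, 1.06 and 1.12 CPM against 0.645, 0.568 and 1.03 CPM. In CPM all PB pools were below all control pools, although PB 3 came close to control 2. In TPM the groups overlapped, with 0.496 TPM in PB 3 and 0.437 TPM in control 2. In CPM the groups did not overlap in 1 of the 10 members and in 10.7% of all genes tested. The log2 fold change was -0.72 ± 0.29 with a 95% interval from -1.43 to -0.019 (edgeR FDR = 0.888), so the difference did not pass the correction over all genes. Without PB 3 it was -1.03 and without control 1 it was -0.54. All counts of Piwil4 were assigned to 1 transcript, XM_017313437.1, and the other transcripts of the gene had 0 counts in every pool. Genes on the opposite strand within the locus of Piwil4 held 2 counts in all, and those within the loci of Tdrd5 and Tdrd9 held 3 and 0.

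The enzymes that process piRNA precursors did not differ between the groups beyond their spread. Mov10l1 (chr15:88982891-89055152, plus strand) encodes the RNA helicase that hands precursors to the cutting machinery. Its level was 83.3, 67.1 and 78.3 CPM in control and 100.6, 59.3 and 103.8 CPM in PB. PB 1 and PB 3 exceeded every control pool and PB 2 lay under them all, with a log2 fold change of 0.21 ± 0.21 (FDR = 0.893). Pld6 (chr11:59783893-59787657, minus strand) encodes the endonuclease on the outer mitochondrial membrane that cuts the precursors. It was at 6.05, 4.73 and 6.97 CPM in control and at 5.83, 5.22 and 5.75 CPM in PB, with all PB pools inside the control range. Its log2 fold change was -0.079 ± 0.16 (FDR = 0.933).

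The nuage components Mael and Asz1 differed nearly 2-fold between PB pools. Mael (chr1:166201385-166238744, minus strand), an HMG box protein required for transposon silencing, was at 96.2, 77.7 and 93.5 CPM in control and at 118.8, 66.5 and 131.7 CPM in PB. Between PB 2 and PB 3 its level differed 1.98-fold, compared with 1.24-fold between the lowest and the highest control pool. The log2 fold change between the groups was 0.25 ± 0.25 (FDR = 0.890). Asz1 (chr6:18050964-18109061, minus strand), an ankyrin repeat scaffold that holds the nuage to mitochondria, had 14.4, 10.7 and 13.8 CPM in control and 16.5, 9.04 and 17.6 CPM in PB. The same order of pools was thus found as in Mael and Mov10l1, with a log2 fold change of 0.15 ± 0.26 (FDR = 0.927).

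Of the 4 Tudor domain genes, Tdrd9 shared this order and the other 3 varied less in PB. Tdrd9 (chr12:111971469-112068854, plus strand), a helicase that works with Piwil4, was at 6.85, 5.28 and 6.81 CPM in control and at 7.85, 4.87 and 9.06 CPM in PB, with a log2 fold change of 0.20 ± 0.24 (FDR = 0.902). Tdrd1 (chr19:56826171-56870012, plus strand), the partner of Piwil2, was at 12.7, 10.4 and 13.9 CPM in control and at 11.4, 11.4 and 13.8 CPM in PB. Its groups covered the same range, with a log2 fold change of -0.016 ± 0.13 (FDR = 0.988).

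Tdrd12 (chr7:35466941-35538162, minus strand), a helicase of secondary piRNA production, was at 5.38, 3.98 and 6.18 CPM in control and at 5.19, 4.25 and 5.88 CPM in PB, with a log2 fold change of -0.020 ± 0.20 (FDR = 0.991). Tdrd5 (chr1:156255296-156305287, minus strand), needed for the nuage of male germ cells, had 15.1, 13.1 and 15.6 CPM in control and 13.6, 10.7 and 13.5 CPM in PB. Its log2 fold change of -0.21 ± 0.12 was the lowest of the members after Piwil4 (FDR = 0.888). It was -0.10 without PB 2 and -0.29 without control 2.

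**Figure D2:**
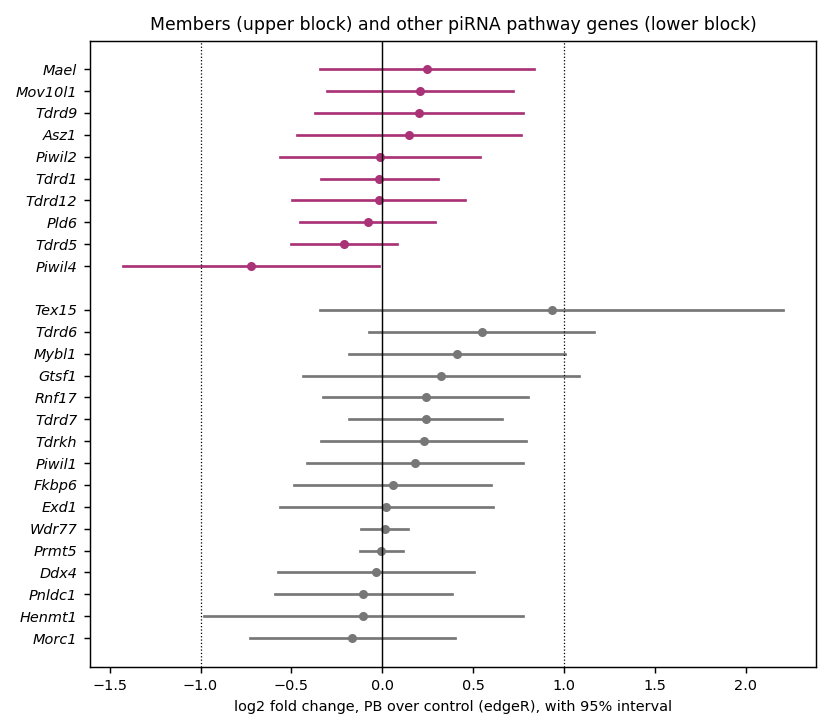
Log2 fold change of PB over control (horizontal axis) with its 95% interval from edgeR, for the 10 members (purple) and the 16 other piRNA pathway genes tested (grey). Dotted lines mark a 2-fold change in either direction. The interval of Piwil4 is the one that lies wholly below 0, and Tex15 has the widest.

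The pools differed more within the PB group than the groups differed from each other. The SD of log2 CPM was larger in PB than in control for 7 of the 10 members, against 59.0% of all genes. PB 2 was the lowest of the 6 pools in 7 members, Piwil2, Piwil4, Mael, Asz1, Mov10l1, Tdrd5 and Tdrd9, against 20.6% of all genes. PB 3 was the highest in 5, Piwil2, Mael, Asz1, Mov10l1 and Tdrd9, against 22.2%. Control 2 was the lowest control pool in 10 of 10 members, against 34.7% of all genes. As these genes come from the same libraries and largely from the same cells, they are not independent of each other.

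Leaving out PB 2 moved several values. Without it, 4 members had an unadjusted p under 0.05, against 12.3% of all genes in the same test, and the 4 were Mael, Mov10l1, Asz1 and Tdrd9. Their log2 fold changes were then 0.49, 0.42, 0.39 and 0.42, with edgeR FDRs of 0.186, 0.209, 0.345 and 0.355, so none was called. Without PB 3 the log2 fold changes of the same genes were 0.055, 0.069, -0.024 and 0.010. The direction of Asz1 thus depended on this pool.

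**Figure D3:**
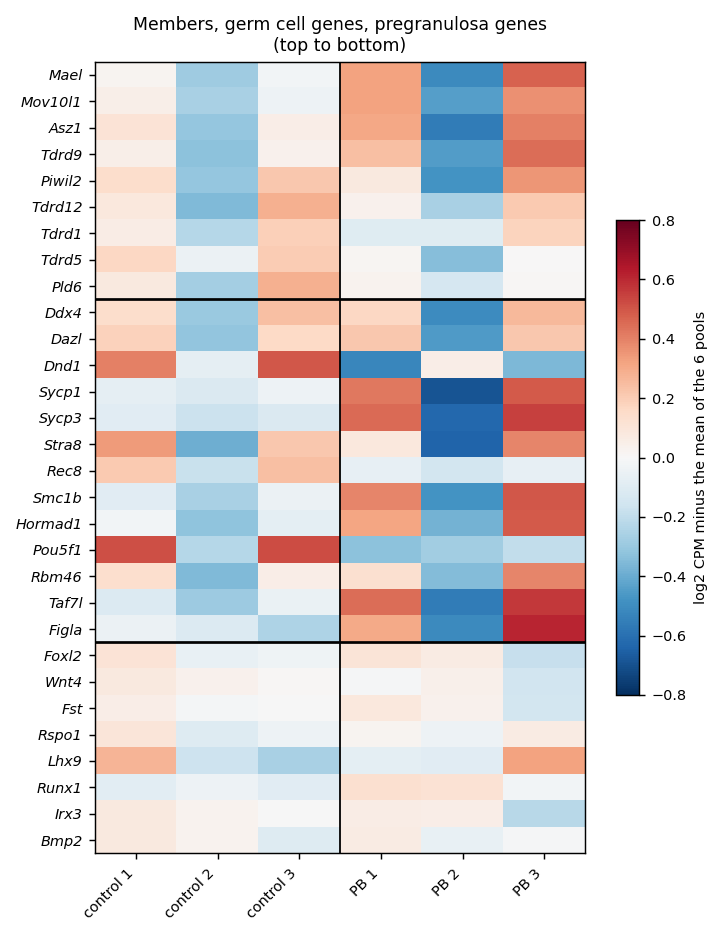
Log2 CPM of each gene minus its mean over the 6 pools (colour, blue low and red high) for the 9 members at 1 CPM or more (top), the germ cell genes (middle) and the pregranulosa genes (bottom). PB 2 is low and PB 3 high in Mael, Mov10l1, Asz1, Tdrd9 and Piwil2 and in most germ cell genes. In contrast, Pou5f1 and Rec8 are below their means in every PB pool and Dnd1 in PB 1 and PB 3. No pregranulosa gene is lowest in PB 2.

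Germ cell markers moved with the members. Within the germ cell list, 10 of 14 genes were lowest in PB 2 and 9 of 14 were highest in PB 3. By the root mean square difference of centred log2 CPM over the 6 pools, the genes most like the mean of the 9 members at 1 CPM or more were Rbm46 (0.0705), Dazl (0.0717) and Ago4 (0.0743), out of 62 genes of the other lists. Rbm46 and Dazl encode RNA-binding proteins of germ cells, and Ago4 an Argonaute protein. Genes of meiotic chromosome structure in the list had log2 fold changes of 0.24 for Sycp1, 0.34 for Sycp3, 0.33 for Smc1b, 0.32 for Hormad1 and -0.20 for Rec8, and none passed the test. Dazl was at -0.0031, Rbm46 at 0.13, the meiotic inducer Stra8 at -0.082, the oocyte factor Figla at 0.34 and Taf7l, the highest of the list, at 0.38. Not every germ cell gene followed the members, and Rec8 was below its mean over the 6 pools in every PB pool. The pluripotency gene Pou5f1 was at 30.6, 18.2 and 30.7 CPM in control and at 17.0, 17.6 and 18.6 CPM in PB, a log2 fold change of -0.58 (edgeR FDR = 0.888). Dnd1, which protects germ cell RNAs, was at 10.9, 7.81 and 11.6 CPM in control and at 5.72, 8.52 and 6.38 CPM in PB, a log2 fold change of -0.55 (FDR = 0.888), and both were under an unadjusted p of 0.05.

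Each member was then divided by the sum of the germ cell list in the same pool, a step added after the difference between the pools had been seen. Over the PB pools, the coefficient of variation of Mael went from 32.7% in CPM to 3.83% relative to germ cell genes. That of Asz1 went from 32.3% to 3.41%, that of Mov10l1 from 28.2% to 2.50% and that of Tdrd9 from 29.7% to 4.03%. These were the 4 members under 5%, a limit that 0.710% of all genes met. Genes of the other lists were not counted against this limit, so it does not set these members apart from other germ cell genes. For Piwil2 the coefficient went from 27.8% to 7.98% and for Piwil4 from 33.3% to 21.7%. The coefficient became smaller in 6 of the 10 members, against 13.6% of all genes.

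The other 4 members became more variable by this step. Tdrd1 went from 11.2% to 29.8%, Pld6 from 5.95% to 29.0%, Tdrd5 from 13.3% to 20.4% and Tdrd12 from 16.0% to 18.9%. Per 1000 CPM of germ cell genes, Tdrd1 was at 6.01, 10.3 and 6.79 in PB 1, 2 and 3 and at 8.01, 8.06 and 8.68 in the control pools, and Pld6 was at 3.08, 4.72 and 2.84 in PB against 3.81, 3.68 and 4.36 in control. Both were thus highest in PB 2 on this scale. Mael stayed at 62.7, 60.2 and 65.0 in PB and at 60.6, 60.4 and 58.5 in control. Piwil4 was at 0.341, 0.514 and 0.509 in PB and at 0.968, 0.826 and 0.698 in control. When the edgeR test was scaled to the germ cell list, the log2 fold change of Piwil4 was -0.87 ± 0.45 (FDR = 1.000), and no member was called. The median of all genes was -0.077 with this scaling and 0.0020 without it. The part of the germ cell content of the pools in these differences was not tested.

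**Figure D4:**
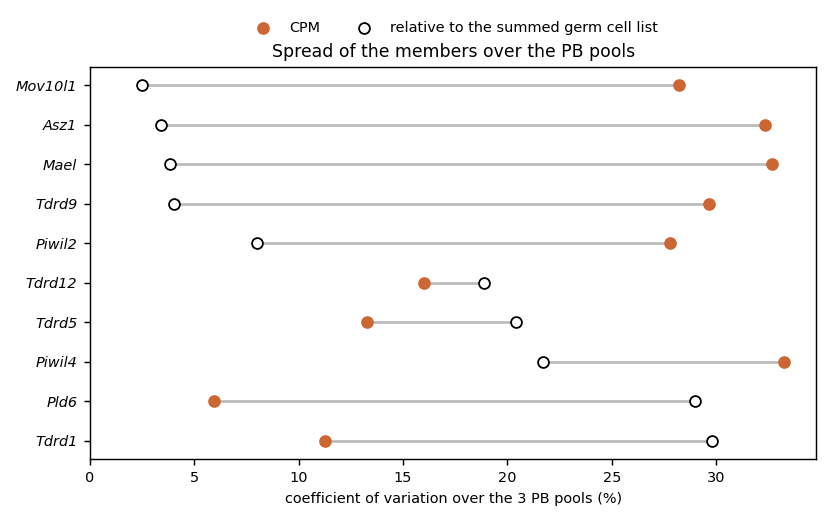
Coefficient of variation over the 3 PB pools (horizontal axis, percent) of each member in CPM (filled) and relative to the summed germ cell list (open). Mael, Asz1, Mov10l1 and Tdrd9 lie at 28.2% or more in CPM and under 5% relative to germ cell genes, whereas Tdrd1 and Pld6 rise to 29.8% and 29.0%.

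The wider pathway was examined with 19 further genes. Of these, 18 were found in the matrix and 16 were tested, while Spocd1 and Dnmt3l held too few counts, with levels of 0 to 0.0850 CPM, and Dnmt3c was not analysed here. None was called and 0 had an unadjusted p under 0.05 by edgeR, and DESeq2 also called 0. In 11 the log2 fold change was above 0 and in 5 below, with a median of 0.12. The lowest value was -0.16 for Morc1, a nuclear factor of transposon silencing. The highest was 0.93 ± 0.53 for Tex15, a nuclear partner of Piwil4 that also acts in meiotic recombination (edgeR FDR = 0.888). Tex15 was at 85.0, 161.3 and 108.3 CPM in control and at 288.0, 72.8 and 316.1 CPM in PB, so that PB 1 and PB 3 lay above and PB 2 below all control pools.

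Other components followed the same pools. Tdrkh, a Tudor protein of the mitochondrial surface, was at 39.3 to 50.9 CPM in control and at 63.3, 34.7 and 62.8 CPM in PB. Rnf17, a Tudor protein that restrains the pathway, was at 65.2 to 83.9 CPM in control and at 99.6, 58.8 and 111.7 CPM in PB. Mybl1, a transcription factor of pachytene piRNA genes, was at 13.8 to 17.5 CPM in control and at 24.6, 13.7 and 26.6 CPM in PB. In all, 12 of the 16 genes tested were lowest in PB 2 and 10 were highest in PB 3. Prmt5 and Wdr77, which methylate the arginines of PIWI proteins and are present in all cells, varied little, at 82.0 to 88.2 CPM and 72.5 to 79.2 CPM. Their log2 fold changes were -0.0043 ± 0.049 and 0.014 ± 0.054.

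None of the remaining pathway genes at 1 CPM or more passed the test. Fkbp6, a co-chaperone of piRNA loading, had a log2 fold change of 0.057, the helicase gene Ddx4 of -0.036 and the trimming enzyme gene Pnldc1 of -0.10. Tdrd7 had 0.24, Exd1 0.023 and the PIWI gene Piwil1, at 1.12 to 2.06 CPM, 0.18. The values of Tdrd6 and Gtsf1 were 0.55 and 0.32, with 95% intervals that included 0.

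The division of the counts among transcripts was far less stable than the gene sums. StringTie distributes the reads of each locus over the assembled transcripts, and all 62 member transcripts matched a RefSeq intron chain. Of these, 17 had 0 counts in every pool, 45 were counted and 26 were tested. The biological coefficient of variation, from the dispersion that edgeR fitted in common to all features, was 98.4% for transcripts and 20.9% for genes. None of the 26 was called by edgeR, against 0.0332% of the 51227 transcripts tested. An unadjusted p under 0.05 was found in 2 of them, against 3.56% of all. DESeq2 called 1 of 32 member transcripts, against 1.85% of all. Of the 33 member transcripts with at least 50 counts in all, 17 had 0 counts in some pool.

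Genes with 1 dominant transcript kept it in every pool. NM_175296.4 held 100% of the counts of Mael, NM_023729.3 held 99.9% of those of Asz1, NM_021308.1 held 93.3% of those of Piwil2 and NM_031260.2 held 92.1% of those of Mov10l1. A minor transcript of Mov10l1, XM_006521555.1, held 159, 130 and 201 counts in control and 275, 391 and 396 in PB. Its log2 fold change was 1.04 ± 0.34 (edgeR FDR = 1.000). It took 1.94%, 1.66% and 2.73% of the counts of the gene in control and 2.76%, 6.45% and 3.28% in PB.

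Tdrd9 showed the sharpest division. Its transcript XM_006516317.3 held 254, 125 and 167 counts in control and 0, 0 and 0 in PB. Its mean CPM in control was 63.4 times the mean level that 3 counts, taken as the floor, give in the PB pools. This floor covers counting error only, and not how StringTie assigned the reads. The adjusted p was 0.270 with edgeR, whereas DESeq2 called the transcript at an adjusted p of 1.03e-10. The main transcript, NM_029056.1, took these pools differently, with 419, 490 and 474 counts in control and 778, 11 and 1043 in PB. In PB 2 the counts of the gene were instead given to XM_006516316.2, which held 0, 0 and 0 counts in control and 0, 473 and 10 in PB. In contrast, the sums of Tdrd9 were 673, 616 and 641 counts in control and 778, 498 and 1053 in PB.

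Tdrd1 and Tdrd5 were divided unevenly as well. NM_001002238.2 held 53.2% of the counts of Tdrd1, with 690, 828 and 658 counts in control and 0, 592 and 1306 in PB. In PB 1 nearly all counts, 1120 of 1129, were assigned to NM_001002241.2, which held 547, 135 and 149 counts in control and 361 and 85 in PB 2 and PB 3. NM_001002240.2 of the same gene held 0, 0 and 0 counts in control and 0, 212 and 204 in PB. In Tdrd5 the most abundant transcript, XM_006496731.2, took 28.4% of the counts, and NM_001277730.1 held 432 counts in control 2 and 0 in each other pool. In contrast, the sums of Tdrd1 were 1250, 1210 and 1307 counts in control and 1129, 1165 and 1600 in PB.

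Tdrd12 and Pld6 lay between these patterns. NM_028034.2 held 66.4% of the counts of Tdrd12, with 58.3% to 77.0% in single pools. NM_001290283.1 held 55.8% of those of Pld6, with 41.0% to 71.6% in single pools. No transcript of these genes had an unadjusted p under 0.05.

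**Figure D5:**
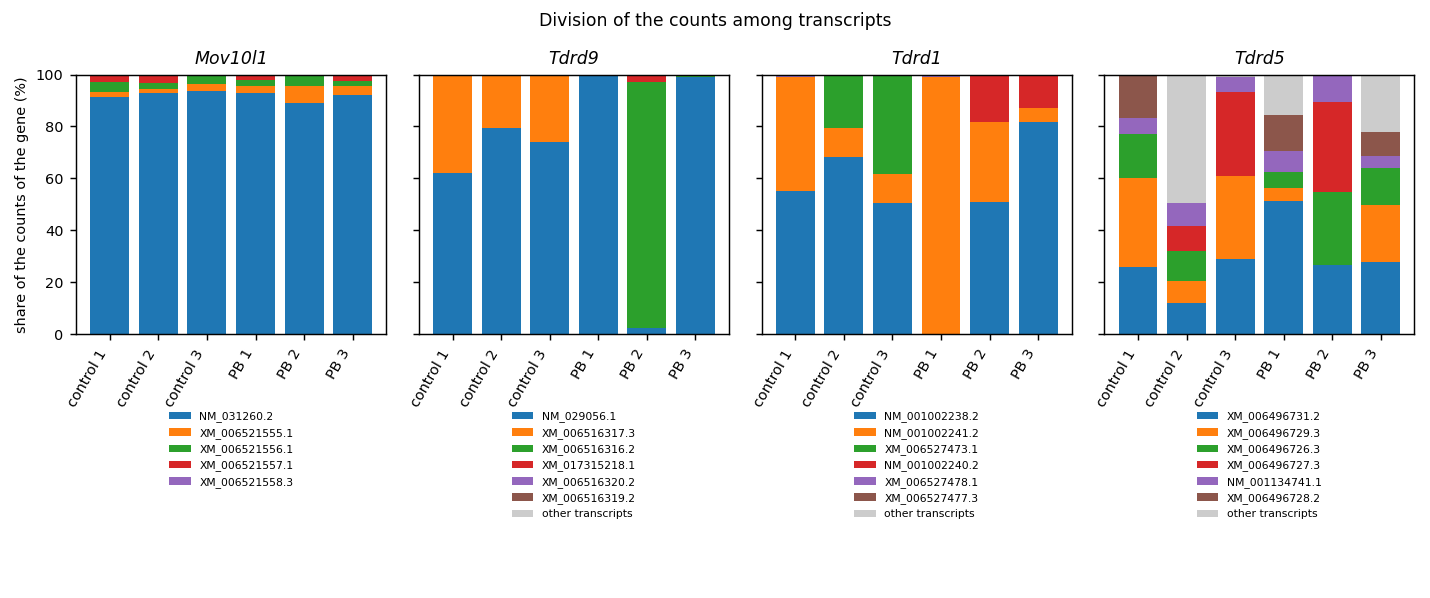
Share of the counts of Mov10l1, Tdrd9, Tdrd1 and Tdrd5 (vertical axis, percent) that StringTie assigned to each transcript, in each of the 6 pools. The 6 most abundant transcripts are coloured, and the rest is grey. Mov10l1 keeps 1 transcript at 89.0% or more in every pool, whereas the leading transcript of Tdrd9 takes 2.21% in PB 2 and 100% in PB 1.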

How the data were processed

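Per the published methods and the submitters' processing notes, reads were aligned to mm10 with HISAT2 2.1.0 and transcripts were assembled and merged with StringTie 1.3.5 on the RefSeq annotation. The authors deposited raw counts per transcript, made by prepDE from transcript coverage, without normalization. Gene names came from the deposited table of their DESeq2 1.30.0 comparison, whose fold changes, p-values and normalized values were not used. Positions and exon lengths came from the deposited annotation. Pools were assigned by their labelled treatment and title, although a series note words the control libraries, too, as those of exposed mice. Whether pools came from separate litters is not stated, so p-values measure the spread between these pools. No sequencing batch is named in the sources used here.

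Counts were summed by gene name, and transcripts without a name (3.05% to 4.49% of counts) were left out of the sums. edgeR 4.0.16 in R 4.3.3 was used with TMM scaling, filterByExpr (minimum count 10, minimum total 15) and the quasi-likelihood F-test on all 6 pools. The SE was the log2 fold change divided by the square root of F, and 95% intervals used the fitted degrees of freedom. CPM are from gene sums with TMM scaling, and centred log2 CPM used a prior count of 2. The floor of detection was 3 counts, for counting error only, or 0.0248 to 0.0321 CPM. Alternatives used DESeq2 1.42.0 and limma 3.58.1. The edgeR fit of gene sums was run on simulated counts, and the other fits were not. These counts used the fitted dispersions and the same mean in all pools of a group, without differences between pools shared by genes. Sequences are from RefSeq, GRCm38.p6.

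The members and gene lists were chosen with earlier results of these data known. Named were all members, listed genes with an unadjusted p under 0.05, the lowest and highest log2 fold change of each list, pathway and germ cell genes at 1 CPM or more, the leading transcript of each member, transcripts with p under 0.05, transcripts with 3 counts or fewer in each pool of a group and a mean of at least 50 in the other, and the 3 most alike genes. Foxl2, Amh, Dhh, Sox9, Cyp26b1 and further transcripts of Tdrd1 and Tdrd9 were named after their values were seen.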

Additional observations from a re-analysis of the deposited data

How the results depend on the processing

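No member gene was called under any of the 17 alternatives, and the log2 fold changes of Piwil4, Tdrd5, Tdrd9, Mael and Mov10l1 kept their direction in all of theirs. With DESeq2, 1 member transcript was called, and among all features 11 genes and 1172 transcripts, against 3 and 17 with edgeR. With limma on log2(TPM + 0.1), Piwil2, Tdrd1, Tdrd12 and Pld6 turned to 0.075, 0.081, 0.12 and 0.059, and with the counts scaled to the germ cell list Asz1 turned to -0.026, each near 0 on the log2 scale. The cause was not tested. With 1 pool left out in turn, the log2 fold change ranged from -0.21 to 0.18 for Piwil2, from -0.13 to 0.072 for Tdrd1, from -0.18 to 0.12 for Tdrd12, from -0.024 to 0.39 for Asz1 and from -0.22 to 0.050 for Pld6. For Piwil4 it ranged from -1.03 to -0.54, with an FDR of 0.498 to 1.000 over all alternatives. Deviations of same-numbered pools correlated at 0.093, 0.15 and -0.018, so the numbers were not taken to pair the pools. With the replicate block, 0 members were called and the called genes went from 3 to 0. Piwil4 had the fewest counts of the members, with 58 to 151 per pool, and the part of depth in its spread was not tested. The values of single transcripts rest on how reads were assigned.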

Other observations

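The miRNA and endogenous siRNA pathway, which acts in all cells and, for siRNAs, in oocytes, was examined with a list of its own. All 9 genes were tested and 0 were called by edgeR, with 0 at an unadjusted p under 0.05. The 9 genes summed to 808 to 846 CPM in control and to 822 to 862 CPM in PB. Their log2 fold changes ran from -0.053 for Dgcr8, a partner of the nuclear nuclease Drosha, to 0.18 for Ago4. Ago4 was lowest in PB 2, at 11.7 CPM, and highest in PB 3, at 18.4 CPM. Dicer1, the nuclease that makes both kinds of small RNA, was at 133.3, 129.8 and 148.0 CPM in control and at 134.1, 125.0 and 153.0 CPM in PB, with a log2 fold change of 0.0037 ± 0.089.

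In the remaining lists, Dmrt1 had a log2 fold change of -0.52, Runx1 of 0.15 and Hba-a2 of -0.77, each under an unadjusted p of 0.05 and with an edgeR FDR of 0.888. At the other ends of these lists, Ptgds had 0.21 among Sertoli genes, Wnt4 -0.081 among pregranulosa genes and Hba-a1 -0.090 among red blood cell genes. Cdh16 and Pax8 had -1.26 and 0.056 in the mesonephros list, and Adgre1 and Csf1r -0.18 and -0.074 in the endothelial and macrophage list. The sums of the Sertoli list were 31.5 to 41.5 CPM in control and 30.2 to 33.3 CPM in PB. They include Dmrt1, at 16.9, 10.1 and 16.6 CPM in control and 10.3, 9.41 and 10.5 CPM in PB. Which cells held the RNA of Dmrt1 was not measured. The sums of the mesonephros list were 14.8 to 31.3 and 13.9 to 20.4 CPM, and those of the endothelial and macrophage list 185 to 214 and 170 to 194 CPM.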
